A study of Mus musculus with 3 samples.

Results

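The genes described here are the metalloproteases of the ADAM, ADAMTS and MMP families, together with the ADAMTS-like genes. They were taken as every gene of the deposited table whose symbol begins with Adam, Adamts, Adamtsl or Mmp followed by a digit, which gave 67 of the 16610 genes listed. Ribosome-bound RNA was pulled down by RiboTag from the middle section of mouse brain hemispheres and sequenced in 3 libraries. The first group was the left hemisphere of animals with middle cerebral artery occlusion (MCAO, a stroke model in which a brain artery is blocked) for 1 h, killed after 3 days (MCAO hemisphere). The second was the right hemisphere of animals with the same occlusion (contralateral hemisphere). The last was the right hemisphere of animals without MCAO (control hemisphere). Each group was 1 library from a pool of 3 animals with 2 technical replicates per the series design, so the differences are without replication and p-values are not given. The title speaks of astrocytes, but the labels name no Cre driver, strain, age or sex. No left hemisphere without MCAO was among the samples, so side and occlusion cannot be told apart.

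RiboTag precipitates an epitope-tagged ribosomal protein, made only in cells that express Cre, together with the transcripts on those ribosomes. ADAMs are membrane proteins that cut the outer parts of other membrane proteins free, a process called shedding, while several brain and sperm ADAMs lack a working catalytic site and act in adhesion. ADAMTS enzymes are secreted and cut matrix proteins, among them the proteoglycans of the brain matrix. MMPs are secreted or membrane-bound enzymes that degrade matrix and are known in stroke for their action on the basement membrane around vessels.

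Values are gene read counts that the authors scaled with 1 size factor for each library, called normalised counts here. Reads recovered from the values of the listed genes summed to 25930258 in the MCAO hemisphere, 33886604 in the contralateral and 31833456 in the control hemisphere. These sums are not the full sequenced depth. Ratios carry exact 95% counting intervals, which cover counting error only. A gene was counted as higher or lower where it differed at least 2-fold on the log2(value + 5) scale, among the 14906 genes with a mean of at least 20 normalised counts. Of 12 astrocyte markers all were listed, and of 12 neuron markers all were listed too, with summed levels of 516519, 501789 and 481728 for astrocytes and of 188866, 195192 and 219954 for neurons in the MCAO, contralateral and control libraries. The material thus held transcripts of both cell types. Gfap alone gave 76049, 12202 and 5903 of the astrocyte sums, and the order of these sums rests on this gene. In such bulk samples more cells of a type and more RNA per cell cannot be told apart.

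The 67 genes fell into 19 ADAMs known as testis genes and 48 others. The testis ADAMs had their highest value in the contralateral library and are described apart, after the others. Of the 48 others, 39 passed the filter on low values. The RefSeq table (GRCm38.p6, also known as mm10) holds 81 genes of this naming, and the other 14, with the collagenase gene Mmp13 among them, were not analysed here. Levels are compared between libraries and not between genes, since transcript lengths were not used.

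Among the 48 genes, Adam8, Mmp19 and Adamts1 in the MCAO library exceeded both right hemispheres at least 2-fold, and 3 stromelysin and metalloelastase genes had reads almost only there. The 3 called genes compare with 2.58% of all genes past the filter at this rule. None of the 39 lay at least 2-fold below both, where the share of all genes was 0.517%. The same 3 genes were those called higher in the comparison with the control alone, where 4.12% of all genes were, and none of the 39 was called lower in the comparison with the contralateral library alone, where 4.96% were. Of the 740 genes behind that share, 616 (4.13% of all) also exceeded the control in the contralateral library, which is the pattern of the testis ADAMs left out of the 39. Adam8 passed the filter only through its MCAO value, and Adamts6 and Adamts18 only through the control. The median log2 difference over the 39 genes was 0.09 in comparison with the control and 0.24 with the contralateral library. Over all 14906 genes both medians were 0.00.

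**Figure D1:**
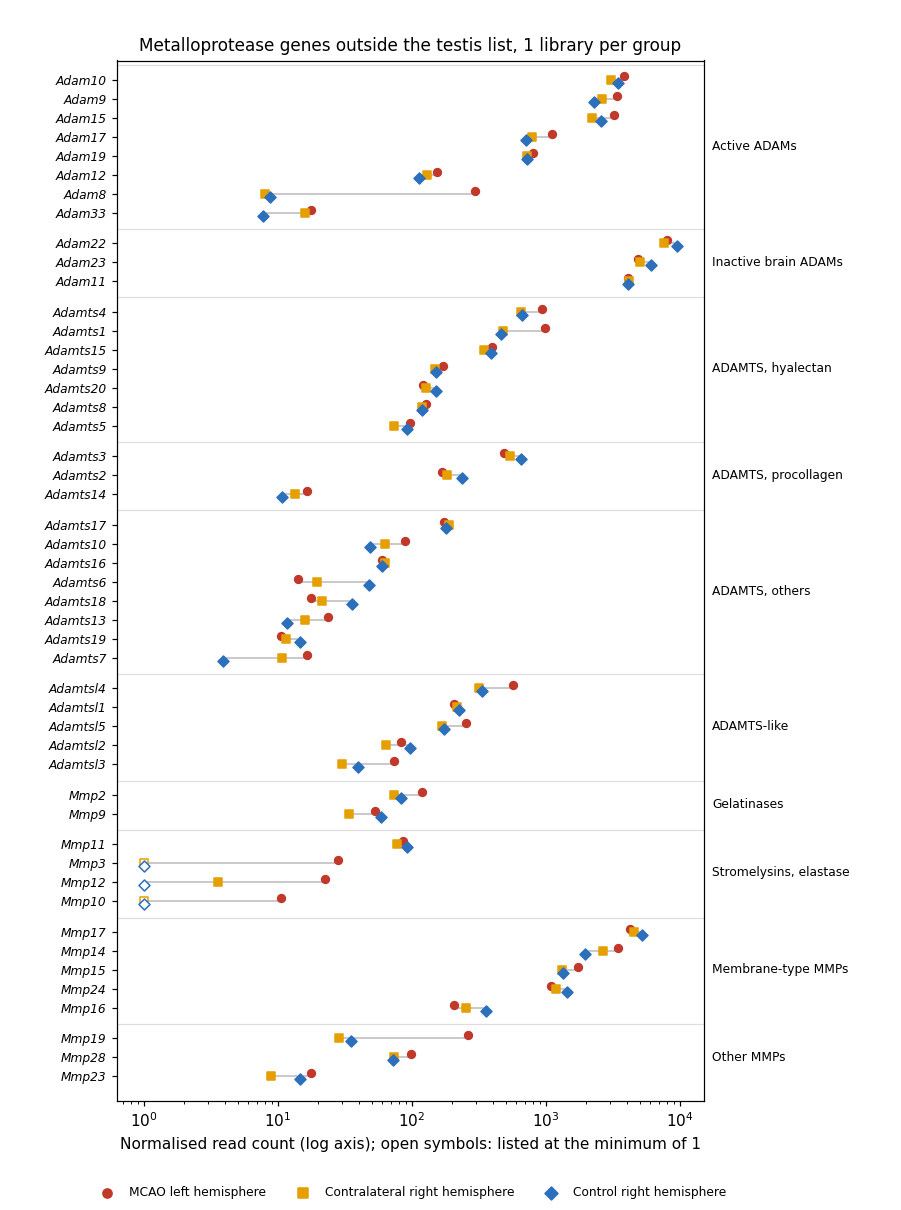
Normalised read counts (log axis) of the 48 metalloprotease genes outside the testis list in the MCAO left, contralateral right and control right hemispheres, 1 library each, grouped by role. Adam8, Mmp19, Mmp3, Mmp10 and Mmp12 stand apart in the MCAO hemisphere, and open symbols mark values listed at the minimum of 1.

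Adam8 encodes a catalytically active ADAM known from leukocytes and lies on chromosome 7, from 139978932 to 139995207. It had 295 normalised counts in the MCAO hemisphere, 7.99 in the contralateral and 8.72 in the control hemisphere. The MCAO library was far above both right hemispheres, which held 9 reads each. Its ratio was 33.9 to the control (17.6 to 74.9) and 37.0 to the contralateral library (19.2 to 81.8). The RefSeq span overlaps those of Gm16201 and Mir7062, whose reads may be mixed with it. By the smaller of both differences Adam8 ranked 6th from the highest among 14906 genes.

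The other ADAMs with a catalytic domain differed less. Adam10, the main alpha-secretase that sheds the amyloid precursor protein and starts Notch cleavage, had 3797, 3042 and 3429 normalised counts in the MCAO, contralateral and control libraries, and was 1.11-fold the control (1.06 to 1.16). Adam17, which releases tumour necrosis factor and ligands of the epidermal growth factor receptor, had 1110, 781 and 709, a ratio to the control of 1.57 (1.42 to 1.73). Its MCAO value lay above both right hemispheres, by less than 2-fold. Adam9, a broadly expressed sheddase, had 3384, 2602 and 2267, a ratio of 1.49 (1.41 to 1.58).

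All 7 active ADAMs past the filter had a counting interval above 1 against the control, against 30.0% of all genes. The interval of Adam19 began at 1.002. Against the contralateral library 5 of the 7 had an interval above 1, against 25.6% of all genes, and those of Adam12 and Adam19 included 1. The median of their log2 differences was 0.43 for the control and 0.38 for the contralateral library. Of the remaining members of this group, chosen after their values were seen, Adam15 had 3232, 2186 and 2573 normalised counts, Adam19 had 796, 724 and 715, and Adam12 had 154, 130 and 113. Adam33 stayed under the filter, with 17.6, 15.97 and 7.75.

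The brain ADAMs without a working catalytic site bind ligands of the LGI family at synapses and showed no 2-fold difference. Adam22, the receptor of LGI1, had 8033 normalised counts in the MCAO hemisphere, 7619 in the contralateral and 9459 in the control hemisphere. Adam23, a related LGI receptor, had 4843, 5014 and 6027. Both were lower in the MCAO and contralateral hemispheres than in the control, with ratios of the MCAO hemisphere to the control of 0.849 (0.823 to 0.876) and 0.803 (0.772 to 0.836). Adam11, the last of the group and named after its values were seen, had 4051, 4156 and 4092. The summed level of 12 neuron markers was also lower in the MCAO and contralateral libraries than in the control, as given above, and its part in these values was not tested.

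Of 7 ADAMTS genes whose enzymes cut brain proteoglycans of the hyalectan type, Adamts1 alone was called. Adamts1, which cleaves versican and aggrecan, lies on chromosome 16 from 85793827 to 85803113. It had 986 normalised counts in the MCAO hemisphere, 481 in the contralateral and 463 in the control hemisphere. The right hemispheres were close to each other, with a ratio of 1.04 (0.917 to 1.18). The ratio of the MCAO hemisphere was 2.13 to the control (1.90 to 2.39) and 2.05 to the contralateral library (1.84 to 2.29), close to the limit of 2-fold.

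Adamts4, an aggrecanase that also cleaves brevican, had 927, 649 and 664 normalised counts in the MCAO, contralateral and control libraries. It was 1.40-fold the control (1.26 to 1.55). Adamts5, the other main aggrecanase, had 96.5, 73.6 and 91.0, with an interval that included 1 (0.778 to 1.44). Adamts5 neighbours Adamts1 on chromosome 16, both within 107 kb. The remaining 4 genes of the group, Adamts8, Adamts9, Adamts15 and Adamts20, had intervals that included 1 in both comparisons of the MCAO library.

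None of the 3 procollagen-processing genes was called. Adamts3 and Adamts2 had intervals below 1 in the MCAO hemisphere against the control. Adamts3 had 489, 538 and 654 normalised counts in the MCAO, contralateral and control libraries, a ratio to the control of 0.749 (0.661 to 0.847). Adamts2, which trims the amino end of fibrillar procollagens, had 168, 181 and 236, a ratio of 0.712 (0.575 to 0.879). In the contralateral hemisphere both also had intervals below 1 against the control. Adamts14, the last of the group, stayed under the filter with 16.5, 13.3 and 10.7, and its interval against the control included 1 (0.652 to 3.76).

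Among the other ADAMTS genes, Adamts6 was highest in the control hemisphere. It had 14.1 normalised counts in the MCAO hemisphere, 19.5 in the contralateral and 47.5 in the control hemisphere, from 12, 22 and 49 reads. It was the 1 gene of the 48 called lower than in the control, both in the MCAO hemisphere, where 1.25% of all genes were, and in the contralateral hemisphere, where 0.362% were. The ratio of the MCAO hemisphere to the control was 0.297 (0.144 to 0.567). The orphan protease gene Adamts18, named after its values were seen, showed the same order with 17.6, 21.3 and 35.8.

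Adamts17 had 174, 187 and 179 normalised counts in the MCAO, contralateral and control libraries. Adamts10, a fibrillin-binding relative of Adamts6, had 88.2, 63.0 and 48.4, a ratio of the MCAO hemisphere to the control of 1.82 (1.26 to 2.66). The group thus ran in both directions, with a median log2 difference of -0.04 over the 5 genes past the filter. Adamts7, Adamts13 and Adamts19 stayed under it, with 9 to 20 reads each in the MCAO hemisphere.

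The ADAMTS-like proteins lack a protease domain, and several bind fibrillin microfibrils. Adamtsl3 was called against the contralateral hemisphere only, where 3.18% of all genes were, and 4 of the 39 metalloproteases. The call was lost with a pseudocount of 20 and with a mean of at least 50. It had 72.9 normalised counts in the MCAO hemisphere, 30.2 in the contralateral and 39.7 in the control hemisphere, and its ratio to the contralateral value was 2.42 (1.57 to 3.79). Adamtsl4, linked to fibrillin fibres of the eye, had 566, 316 and 330, a ratio to the control of 1.71 (1.49 to 1.97). Adamtsl5, named after its values were seen, had 251, 167 and 172. Adamtsl1 had 206, 218 and 224, with an interval against the control that included 1 (0.752 to 1.12). Adamtsl2, named after its values were seen, had 82.3, 63.9 and 95.9. Its interval in the MCAO hemisphere against the control included 1 (0.623 to 1.18), and that of the contralateral hemisphere lay below 1 (0.485 to 0.912).

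Endothelial, mural and fibroblast markers are given beside these matrix genes, since ADAMTS genes are known from vessel walls. The summed level of 12 endothelial markers was 3796 in the MCAO hemisphere, 3150 in the contralateral and 3737 in the control hemisphere. None of the 12 was called against the control, where 4.12% of all genes were higher and 1.25% lower. Against the contralateral library 1 of the 12 was called higher, where 3.18% of all genes were. It was the angiopoietin receptor gene Tek with a ratio of 2.23 (1.47 to 3.43), and Flt1 had 2.06 (1.53 to 2.78). The sum of 12 mural and fibroblast markers was 6792, 5398 and 5782. Of these 12 markers 1 was called higher than in both right hemispheres, where 2.58% of all genes were, the proteoglycan gene Cspg4. Cspg4 also marks oligodendrocyte precursors. The part of these cells in the ADAMTS values was not tested.

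**Figure D2:**
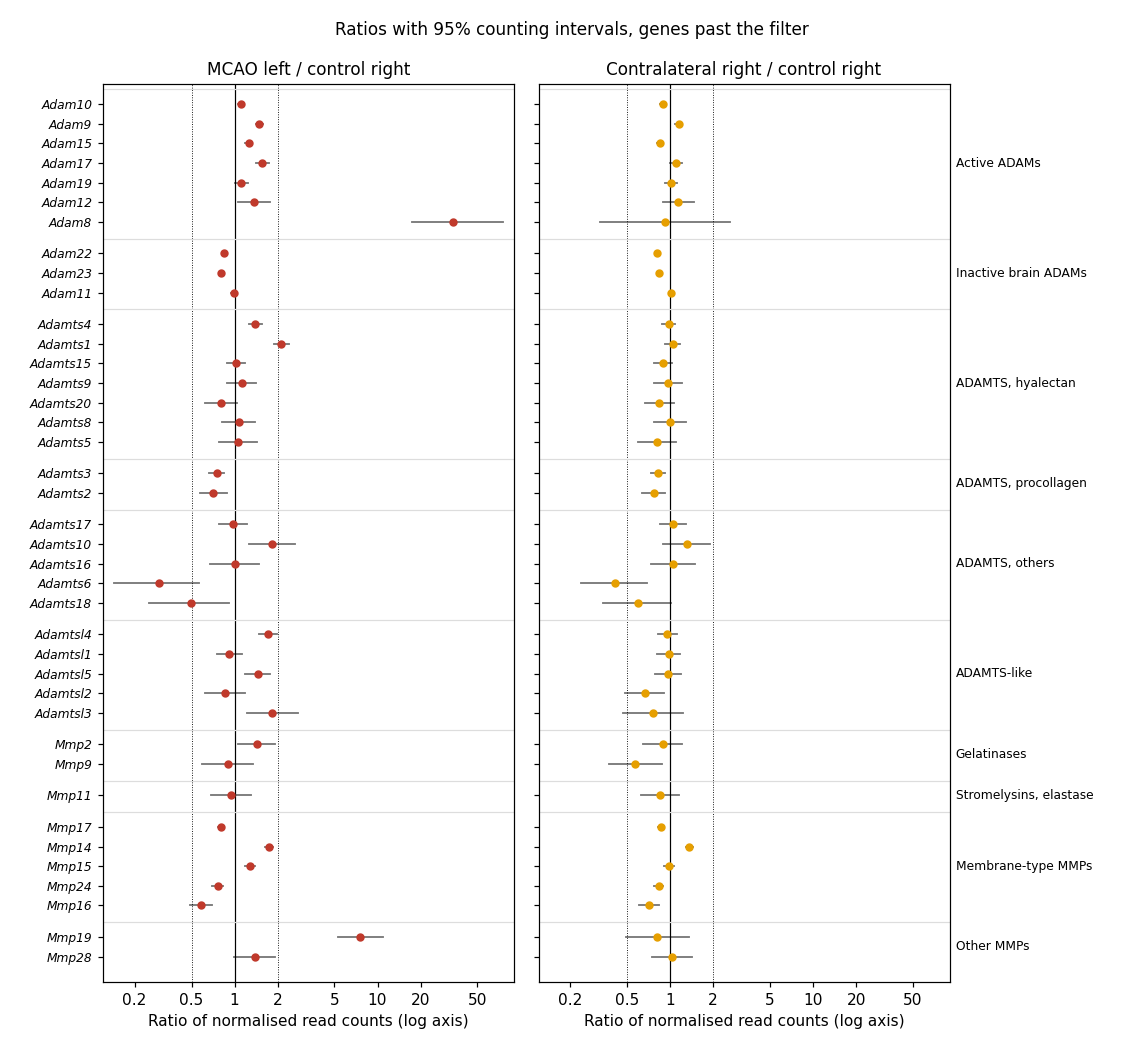
Ratios of normalised read counts (log axis) of the MCAO hemisphere to the control (left) and of the contralateral hemisphere to the control (right) for the 39 genes outside the testis list past the filter, with 95% counting intervals and dotted lines at 0.5 and 2. Adam8 at 33.9 and Mmp19 at 7.49 stand apart on the left, and no gene is above 2 on the right.

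Of the MMPs, Mmp19 was called higher in the MCAO hemisphere. Mmp19, a secreted MMP that cleaves basement membrane proteins, lies on chromosome 10 from 128790910 to 128800827. It had 261 normalised counts in the MCAO hemisphere, 28.4 in the contralateral and 34.9 in the control hemisphere. The right hemispheres overlapped in their counting error, with a ratio of 0.814 (0.490 to 1.35). The ratio of the MCAO hemisphere was 7.49 to the control (5.25 to 10.97) and 9.20 to the contralateral library (6.33 to 13.8). Mmp19 ranked 48th from the highest of 14906 genes by the smaller of both differences. Its RefSeq span overlaps that of Tmem198b, and reads of the 2 genes may be mixed, since the sources used here state nothing on strand.

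Mmp3, Mmp10 and Mmp12 had few reads, nearly all of them in the MCAO hemisphere. Mmp3, encoding stromelysin 1, an activator of other pro-MMPs, had 28.2 normalised counts from 24 reads in the MCAO hemisphere and the floor value of 1 on both right sides, which there stands for 0 reads or 1 read. Taking 1 read there, the interval of its ratio to the contralateral value began at 5.19 and that to the control at 4.75. Mmp12, the macrophage metalloelastase, had 22.3 normalised counts in the MCAO hemisphere, 3.55 in the contralateral hemisphere and the minimum of 1 in the control. Its ratio to the contralateral value was 6.30 (2.09 to 25.5). Mmp10, encoding stromelysin 2 and named after its values were seen, had 10.6 from 9 reads and was listed at 1 in both right hemispheres. Its intervals began at 1.65 and 1.51 against the contralateral and the control library.

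These 3 genes passed no filter, so they are outside the counts above. Without the filter 6 of the 48 genes exceeded both right hemispheres, against 3.01% of all 16610 genes. Every listed gene reached at least 10.6 normalised counts in some library, and Mmp3, Mmp10 and Mmp12 did so only in the MCAO library. Their pattern was thus in part fixed by being listed, and the count of 6 is no support for it. The 3 genes lie within 166 kb of chromosome 9, in a cluster where RefSeq places 10 MMP genes, and the other 7 of that chromosome were not analysed here. Reads of Mmp3 and Mmp10, which are close paralogs, can be shared, and their single values are uncertain. The promoters of the 3 genes are shown because the genes share this place and this pattern, with Adam8 beside them.

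The sequences are from RefSeq (GRCm38.p6) and cover 250 bases before the start that the table gives, written 5′ to 3′ on the gene's strand. Capitals mark a match to TGANTCA, the site bound by AP-1 (Fos and Jun) factors, which reads the same on both strands. Mmp3 is on the plus strand at chr9:7445572-7445821, Mmp10 on the plus strand at chr9:7502092-7502341, Mmp12 on the plus strand at chr9:7347124-7347373 and Adam8 on the minus strand at chr7:139992563-139992812.
Mmp3: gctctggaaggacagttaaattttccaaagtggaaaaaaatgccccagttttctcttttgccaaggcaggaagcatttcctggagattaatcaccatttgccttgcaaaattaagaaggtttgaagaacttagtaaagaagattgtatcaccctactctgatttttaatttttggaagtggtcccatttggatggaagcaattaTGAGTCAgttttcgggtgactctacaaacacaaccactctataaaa
Mmp10: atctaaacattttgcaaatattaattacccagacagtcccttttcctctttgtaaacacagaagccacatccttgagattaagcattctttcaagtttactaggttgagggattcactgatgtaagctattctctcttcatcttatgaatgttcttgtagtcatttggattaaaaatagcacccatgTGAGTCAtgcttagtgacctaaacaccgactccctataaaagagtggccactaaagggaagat
Mmp12: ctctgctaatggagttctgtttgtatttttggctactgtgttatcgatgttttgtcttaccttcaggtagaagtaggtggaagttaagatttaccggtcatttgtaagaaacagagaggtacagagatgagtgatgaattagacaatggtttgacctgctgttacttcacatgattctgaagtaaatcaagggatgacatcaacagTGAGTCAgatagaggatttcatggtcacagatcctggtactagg
Adam8: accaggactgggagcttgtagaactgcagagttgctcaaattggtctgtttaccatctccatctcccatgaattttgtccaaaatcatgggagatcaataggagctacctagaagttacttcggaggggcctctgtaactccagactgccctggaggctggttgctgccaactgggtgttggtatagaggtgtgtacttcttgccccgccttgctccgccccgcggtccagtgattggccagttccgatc

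The match in Mmp3 began 46 bases before the start, that in Mmp10 63 bases and that in Mmp12 44 bases, each with the letters TGAGTCA. The Mmp12 window belongs to the second of its 2 RefSeq starts, and the window of the other start, at chr9:7344147-7344396, held no match. The Adam8 window held none either, and it lies inside the gene span given above, before a start other than the outermost. Of 32851 promoter windows of this length in the RefSeq table, 6.75% held at least 1 match. Of 42 windows of 38 metalloprotease genes 7 did (16.7%), and the other 4 belonged to Adam19, Adam20, Adam25 and Adam29. The other 29 genes had no entry. A match is a description of letters and was not tested as a binding site.

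The gelatinases, MMPs that digest denatured collagen and basement membrane, were low in all 3 libraries. Mmp2 had 119, 73.6 and 83.3 normalised counts in the MCAO, contralateral and control libraries, a ratio to the control of 1.43 (1.06 to 1.92). Mmp9, the gelatinase most often followed in stroke and stored in neutrophils, had 52.9, 33.7 and 59.1 from 45, 38 and 61 reads. The ratio of the MCAO hemisphere was 0.896 to the control (0.596 to 1.34) and 1.57 to the contralateral library (0.997 to 2.48), and both intervals included 1. At this depth no difference of Mmp9 in the MCAO hemisphere was detectable.

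The membrane-type MMPs went in both directions. Mmp14, which activates proMMP2 at the cell surface, had 3423 normalised counts in the MCAO hemisphere, 2680 in the contralateral and 1965 in the control hemisphere, a ratio of the MCAO hemisphere to the control of 1.74 (1.65 to 1.84). The contralateral value was 1.36-fold the control (1.29 to 1.44). Mmp17, a membrane MMP held by a lipid anchor, ran in the other direction with 4206, 4498 and 5229 and was at 0.804-fold the control (0.771 to 0.839). Mmp15, Mmp16 and Mmp24 are added after their values were seen. Mmp15 had 1728, 1321 and 1347, Mmp16 had 207, 252 and 355, and Mmp24, the membrane-type 5 MMP of neurons, had 1092, 1190 and 1434.

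The remaining MMPs differed little. Mmp11, encoding stromelysin 3, had 85.9, 77.2 and 91.0 normalised counts in the MCAO, contralateral and control libraries. Mmp28, encoding epilysin, had 98.8, 73.6 and 71.7, and its interval against the control included 1 (0.997 to 1.91). Mmp23 stayed under the filter with 8.87 to 17.6.

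Many but not all markers of myeloid cells were higher in the MCAO library as well. Of 11 macrophage and monocyte markers listed 8 exceeded both right hemispheres at least 2-fold without the filter, where 3.01% of all genes did, with summed levels of 13369 in the MCAO hemisphere, 1162 in the contralateral and 726 in the control hemisphere. Spp1 alone gave 8736, 487 and 251 of these sums. Ccr2, Mrc1 and Cd163 were not called. Of 12 microglia markers 7 exceeded both right hemispheres, with sums of 30414, 11427 and 11112. P2ry12, Tmem119, Sall1, Siglech and Aif1 did not. Aif1 had 159, 259 and 79.4, and its MCAO value was 0.613-fold the contralateral one (0.496 to 0.754). The monocyte receptor gene Ccr2 had 12.9, 13.3 and 8.72, and the macrophage gene Ms4a7 had 18.8, the floor value of 1 and 2.91. Of 12 neutrophil markers 3 were listed, Csf3r, Lcn2 and S100a9, with sums of 1312, 165 and 97.8, and S100a9 had 16.5, 14.2 and 5.81. Lcn2, which reactive astrocytes also express, gave 981, 54.1 and 10.7 of these sums. The part of these cells in the values of Adam8, Mmp19, Mmp3, Mmp10 and Mmp12 was not tested.

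Across the 39 genes, 17 (43.6%) had an interval above 1 in the MCAO hemisphere against the control, where 30.0% of all genes did, and 9 (23.1%) had one below 1, against 29.9%. Against the contralateral library 15 were above 1 (38.5%) and 3 below (7.69%), where 25.6% and 25.4% of all genes were. The comparisons share the MCAO library.

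The second comparison set the contralateral against the control right hemisphere. Of the 39 genes outside the testis list none was at least 2-fold higher, where 5.17% of all genes were. Of the 771 genes behind that share, 616 had the pattern of the testis ADAMs, which are not among the 39, so the 0 cannot be read against it. Adamts6 was the 1 called lower. The median log2 difference was -0.16, beside 0.00 over all genes, with 2 intervals above 1 (5.13%) and 12 below (30.8%), where 28.7% and 29.4% of all genes were, with the genes of that pattern among the 28.7%. The 2 above were Adam9, with a ratio of 1.15 (1.09 to 1.21), and Mmp14. Mmp9 was among the lower ones, at 0.571-fold the control (0.370 to 0.870).

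The 19 testis ADAMs had their highest value in the contralateral library, every one of them. These ADAMs sit on sperm and their precursors, and several are needed for sperm to enter the oviduct and bind the egg. The list was written from textbook knowledge with earlier results of these data known, so its direction is no independent evidence. Their values in the contralateral library ran from 23.96 to 844 normalised counts with a median of 54.1. In the MCAO library they ran from 1 to 70.6 with a median of 1.18, and in the control from 1 to 59.1 with a median of 1. In the control 11 were listed at the minimum of 1, and 8 were in the MCAO hemisphere.

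Adam5 had 844 normalised counts in the contralateral hemisphere, 9.41 in the MCAO and 9.69 in the control hemisphere. It was 87.1-fold the control (47.2 to 182). Adam3, encoding cyritestin, which mouse sperm need to pass into the oviduct, had 767, 2.35 and 5.81 in the same 3 libraries, 132-fold the control (60.4 to 360). Adam32 had 378, 5.88 and 1.94, and Adam2, encoding fertilin beta, had 223, 1.18 and 2.91. Adam2 was 76.6-fold the control (25.9 to 374). Adam1b, a fertilin alpha gene that pairs with Adam2 in mouse sperm, had 109, 2.35 and 5.81.

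Adam1a and Adam21 stood out among the 19 by their levels in the other libraries. Adam1a, the broadly expressed fertilin alpha copy, had 193 normalised counts in the contralateral, 70.6 in the MCAO and 59.1 in the control hemisphere. Adam21 had 51.5, 27.1 and 15.5 and was the 1 testis ADAM not at least 2-fold above both other libraries on the log2(value + 5) scale without a filter. The other 17 held 3357 reads in the contralateral library, 29 in the MCAO and 32 in the control library, with values listed at 1 taken as 0 reads, although in the control each could hold 1. At most 8 of these were from 1 gene in the MCAO hemisphere and 10 in the control.

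The lowest values in the contralateral library belonged to Adam25, with 23.96 normalised counts, Adam39 with 37.3, Adam34 with 38.2 and Adam26a with 40.8. Adam24 had 104 and Adam18 had 81.6. Adam6a and Adam6b, which lie inside the immunoglobulin heavy chain locus and are needed in mouse for sperm function, had 79.0 and 54.1. The last 4 were Adam30 with 53.2, Adam4 with 50.6, Adam29 with 49.7 and Adam20 with 46.1. Several of these genes are close copies, such as Adam6a and Adam6b or Adam34 and Adam39, and their single values are uncertain. Of the 19 genes 8 were under the filter, and 18 were at least 2-fold above both other libraries without it, where 7.11% of all genes were. The 8 reached the lowest listed maximum of 10.6 normalised counts only in the contralateral library. Of those past the filter, all but Adam1a and Adam21 passed it only through their contralateral value. The count of 18 is thus no support for the pattern.

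**Figure D3:**
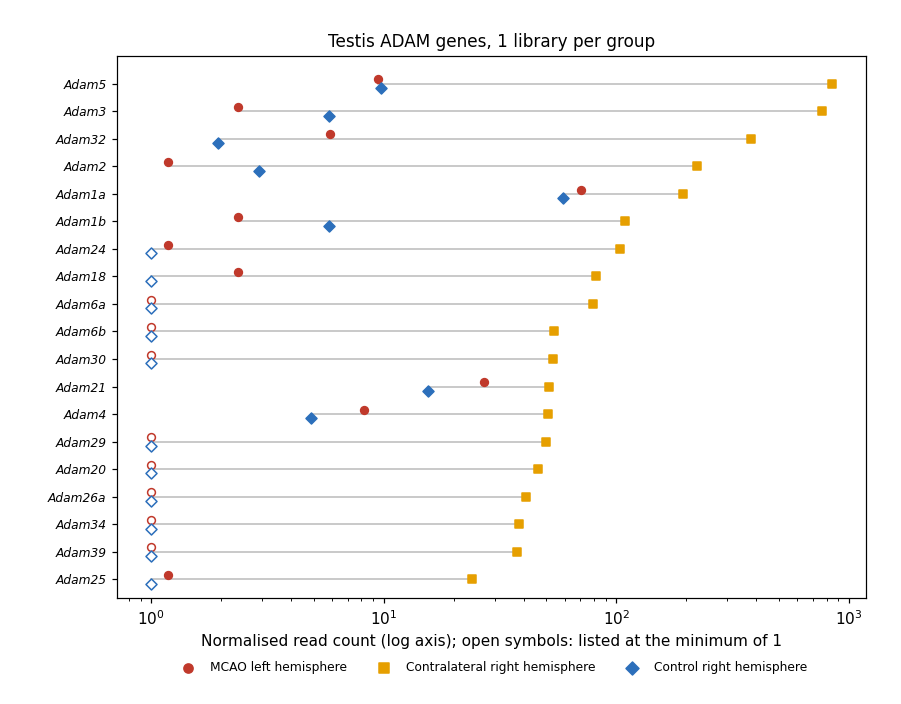
Normalised read counts (log axis) of the 19 testis ADAM genes in the MCAO left, contralateral right and control right hemispheres, 1 library each, ordered by the contralateral value. All 19 are highest in the contralateral library, from 23.96 to 844, and open symbols mark values listed at the minimum of 1.

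Of the 19 genes 11 lie on chromosome 8, 4 on chromosome 12, 2 on chromosome 5 and 1 each on chromosomes 3 and 14. Adam18, Adam3, Adam5, Adam32 and the sheddase gene Adam9 follow each other within 415 kb of chromosome 8. Adam32 and Adam9 are 692 bases apart in RefSeq. In the contralateral and the control library Adam32 had 378 and 1.94 normalised counts, whereas Adam9 had 2602 and 2267.

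Other genes of male germ cells were high in the same library. All 18 male germ cell markers were listed, and without the filter all 18 were at least 2-fold above both other libraries, where 7.11% of all genes were. Most of them had almost no reads elsewhere, so they were listed only through their contralateral value. Their summed level was 14882 in the contralateral library, 1273 in the MCAO and 1219 in the control library, and 1175 of the MCAO sum and 1111 of the control sum came from Odf2, a sperm tail gene that other cells also express. The origin of these transcripts was not tested.

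The genes that work with these proteases were taken from lists of inhibitors, activators, regulators and substrates. Counts are read against the 2.58% of all genes that exceeded both right hemispheres in the MCAO library, and Timp1, Rhbdf2 and Plaur passed the filter only through their MCAO value. Of 6 inhibitor genes 2 did so. Timp1, a secreted inhibitor of most MMPs, had 428 normalised counts in the MCAO hemisphere, 19.5 in the contralateral and 2.91 in the control hemisphere, 147-fold the control (50.03 to 718). Its contralateral value was also called above the control, at 6.72-fold (2.02 to 35.1). A2m, encoding the protease trap alpha-2-macroglobulin, had 1329, 551 and 346. Timp2 had 8222, 8724 and 10435, Timp3 had 8182, 10075 and 10274, and Timp4 had 3351, 3049 and 2444, and these 3 were within 2-fold.

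Regulators of ADAM10 and ADAM17 included 1 called gene of 8 against both right hemispheres. Rhbdf2, an iRhom that carries ADAM17 to the cell surface, had 67.0 normalised counts in the MCAO hemisphere, 12.4 in the contralateral and 18.4 in the control hemisphere. Rhbdf1, the other iRhom, was called against the control only, with 554, 376 and 210. Of 7 proenzyme activators 2 were higher than in both. Plau, encoding urokinase, had 566, 102 and 90.1, and its receptor gene Plaur had 113, 10.6 and 6.78.

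Of 17 ADAM10 and ADAM17 substrates listed, 3 exceeded both right sides, again beside 2.58% of all genes. Cd44, the hyaluronan receptor, had 1016, 130 and 130 normalised counts in the MCAO, contralateral and control libraries. The microglial receptor gene Trem2 had 822, 143 and 124, and Tnfrsf1a, a receptor of tumour necrosis factor, had 1540, 744 and 535. None of the 8 hyalectan and link protein genes was called, and their median log2 difference against the control was -0.27. None of the 4 LGI ligand genes was called.

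**Figure D4:**
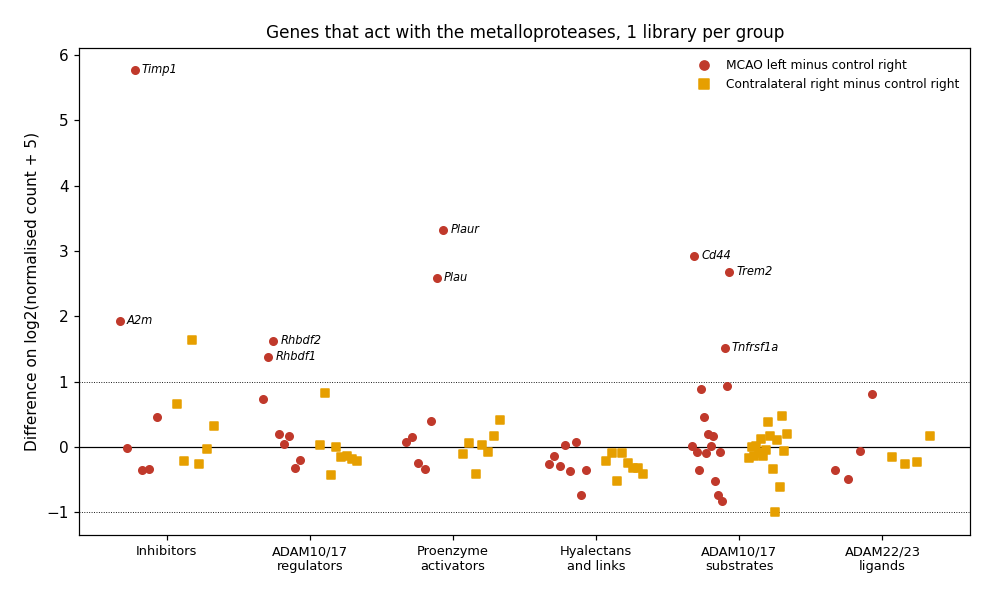
Differences on the log2(normalised count + 5) scale of the MCAO and of the contralateral hemisphere from the control for 6 lists of genes that act with the metalloproteases, 1 point per gene, with dotted lines at a 2-fold difference. Timp1 is the highest point, and Plaur, Cd44, Trem2 and Plau follow.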

How the data were processed

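Ribosome-bound RNA of 3 libraries was analysed, 1 per group, each from a pool of 3 animals. The deposited values are a signal, namely gene read counts that the authors scaled with 1 size factor for each library, with no value under 1; the scaling was read from the regular spacing of the values, since no source used here states it. Per the submitters' processing notes, CASAVA 1.8, HISAT2 2.0.11, Partek 6.6, R 3.3.1, DESeq2 and build mm10 were used, with no roles given. Whole reads were recovered from the spacing of low values, which was worth 1.18, 0.887 and 0.969 normalised counts per read in the MCAO, contralateral and control columns, and 99.9% of values above 1 were whole within 0.1 read in each. Columns were matched through the sample descriptions.

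Differences were taken on log2(value + 5) for genes averaging at least 20, and ratios on the normalised counts with exact Clopper-Pearson intervals at 95% from the recovered reads (scipy 1.17.1). A value listed at 1 took 1 read in intervals and 0 in sums of reads; in both right columns it can stand for either. Since no molecular identifiers are described, reads may repeat molecules. Gene positions and promoters came from RefSeq tables of GRCm38.p6, in which all 67 symbols were found. TMM factors came from edgeR 4.0.16 and were an alternative scaling only. The calling procedure was tested on simulated reads.

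Values are given for members called in any comparison, the 2 of highest mean in each role group and a fixed set of well-known members. Other members named were chosen after their values were seen, and not all are marked so where they appear. Mmp10, Adamts14 and Mmp23 are among these, and single marker genes were also picked after their values were seen. The testis ADAMs under the filter were added in the same way. The genes and lists were chosen with earlier results of these data known.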

Additional observations from a re-analysis of the deposited data

How the results depend on the processing

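With 1 library per group, no replicate could be left out, and no paired analysis was possible because no group had replicate numbers to share. Of 81 recomputed counts 65 stayed within 1.5 times. Under 3 other scalings (total recovered reads, upper quartile, TMM) no count moved by more than that and all 162 ratios stayed within their counting intervals. These scalings changed the columns only by factors of 0.983 to 1.013, so hardly any change could follow from them. Without the filter the counts outside the testis list were 6 higher than in both right hemispheres, 7 higher than the control and 7 higher than the contralateral library in the MCAO hemisphere, and 18 testis ADAMs were high in the contralateral library, where 3.01%, 4.95%, 3.88% and 7.11% of all genes were. With a mean of at least 50 that number was 5 (2.28% of all genes), and the single gene lower than the control, Adamts6, was lost in both comparisons (0), as it was with a pseudocount of 20 (0) and at 3-fold (0). Adamtsl3 was lost under the same 3 settings. At 3-fold 2 genes were higher than the contralateral library (1.46% of all genes). At 1.5-fold 5 were higher than both, 8 higher than the control and 3 lower in the MCAO hemisphere, and 3 were lower in the contralateral library, where 4.88%, 9.16%, 5.18% and 2.25% of all genes were. The wider fold and the dropped filter admit more genes by construction. Of 231 recomputed medians 8 moved beyond the counting interval of their middle genes. Depth limits Mmp3, Mmp10, Mmp12, Adamts6 and Adamts18, which rest on under 50 reads in every library.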

Other observations

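Partners that ADAMs need on their way to the sperm surface were also listed. Of 9 such genes 7 exceeded both other libraries at least 2-fold in the contralateral one without the filter, where 7.11% of all genes did. Cmtm2a had 366 normalised counts in the contralateral hemisphere and was listed at 1 in the MCAO and control hemispheres. Pdilt, a testis protein disulphide isomerase that helps ADAM3 fold, had 91.4 in the contralateral, 1.18 in the MCAO and 1.94 in the control hemisphere. Tex101, a sperm membrane protein that ADAM3 needs in mouse, had 70.1 and was listed at 1 in both other libraries. Izumo1 had 57.7 and Spam1 had 22.2 in the contralateral library, and both were listed at 1 in the other libraries. Cmtm2a, Pdilt, Tex101, Izumo1 and Spam1 were thus listed only through their contralateral value, so the count of 7 is no support for the pattern. Spam1 and Zpbp are also among the 18 male germ cell markers. The chaperone gene Clgn, which ADAM fertilin assembly needs in mouse, had 613, 176 and 211 in the same order of libraries, and Calr3, a further testis chaperone, had 172, 97.6 and 59.1. Clgn and Calr3 thus had reads in all 3 libraries. Ace, whose testis form acts on sperm, had 935, 528 and 602.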
